A study of Mus musculus with 23 samples.

Results

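Interferon-stimulated genes were measured in brain tissue of mice given inhibitors of the colony-stimulating factor 1 receptor (CSF1R), the receptor on which microglia depend for survival. The set was the 36 listed interferon-stimulated genes that appear by symbol in the deposited count table. All 36 were found among 22310 named genes, and all 36 were among the 16209 genes with enough counts to be tested. All animals were C57BL/6J mice, wild type (WT) or carrying Csf1R-G793A, a substitution in the receptor, and the labels do not say how it was introduced or on how many alleles. They ate control chow, chow with PLX3397 at 290 mg/kg or chow with PLX5622 at 1200 mg/kg for 14 days, and both compounds are CSF1R inhibitors. The study asked what the substitution and each inhibitor did to the brain transcriptome, and whether the substitution prevented the inhibitor effects. There were 3 libraries of WT mice on control chow and 4 libraries in each of 5 other groups, which were G793A on control chow, WT on PLX3397, G793A on PLX3397, WT on PLX5622 and G793A on PLX5622. The labels give the tissue only as brain and give neither age, sex, region nor whether each library came from its own mouse. The p-values therefore measure the spread between these samples, which may be technical.

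Interferons are secreted proteins that cells release when they sense foreign or misplaced nucleic acid. Type I interferons bind a receptor made of IFNAR1 and IFNAR2, whose kinases activate a transcription complex that holds STAT2 and IRF9. The complex binds the interferon-stimulated response element (ISRE) in promoters and switches on antiviral genes, while type II interferon acts through the gamma-activated site (GAS). Many cell types of the brain can respond, microglia among them, and a low tonic level of these transcripts is present without infection.

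Promoter stretches are shown for the 5 genes among those with the smallest p-values in the WT inhibitor comparisons whose window holds the response element. Irf9 and Slfn2, also among the smallest, had windows with no ISRE core and are not printed, and Parp14 had no window at hand. RefSeq promoter windows, from 250 bases before to 50 bases after each start site on build GRCm38.p6, were at hand for 28 of the 36 genes. The study's own build is GRCm39, so these positions serve the promoters alone. The ISRE core was searched as GAAANNGAAA and the GAS as TTCNNNGAA, on both strands. The stretches run 5′ to 3′ on the strand of the gene, and capitals mark bases inside an ISRE core read on either strand. All 6 lie on the minus strand. Trim30a is at chr7:104465194-104465303, Bst2 at chr8:71537513-71537622, Isg15 at chr4:156200819-156200928, Oas1a at chr5:120907526-120907635, Ifitm3 at chr7:141010715-141010744 and Dtx3l at chr16:35939028-35939137. Dtx3l, the neighbour of Parp9 and Parp14, is shown as a window with no core.
Trim30a: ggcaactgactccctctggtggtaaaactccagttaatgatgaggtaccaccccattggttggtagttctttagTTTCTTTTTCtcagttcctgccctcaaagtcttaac
Bst2: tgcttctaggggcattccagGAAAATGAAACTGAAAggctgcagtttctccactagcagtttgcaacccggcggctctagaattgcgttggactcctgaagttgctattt
Isg15: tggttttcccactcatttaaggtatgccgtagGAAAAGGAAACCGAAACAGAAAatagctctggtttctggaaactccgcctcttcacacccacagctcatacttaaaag
Oas1a: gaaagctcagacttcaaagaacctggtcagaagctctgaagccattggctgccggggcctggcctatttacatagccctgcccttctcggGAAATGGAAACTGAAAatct
Ifitm3: agGAAAAGGAAActtctgaGAAACCGAAAc
Dtx3l: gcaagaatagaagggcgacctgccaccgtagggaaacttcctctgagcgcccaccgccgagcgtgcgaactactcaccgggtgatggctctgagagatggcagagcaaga

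Isg15 held 3 overlapping cores, from position -78 to -57 relative to its start. Bst2 and Oas1a held 2 overlapping cores each, and the cores of Ifitm3 lay just past its start, which is the first base printed. In Trim30a the core was read on the opposite strand, in both of its 2 RefSeq windows, and the window with the core at -36 to -27 is the one printed. Across the set, 14 of 28 genes (50.0%) had an ISRE core, against 3.99% of 27025 genes with a window and 3.74% of the tested genes. A GAS was found in 6 of 28 genes (21.4%), against 9.55% of all genes with a window, and in Bst2 and Ifitm3 it overlapped an ISRE core. By role, all 3 membrane-acting genes and 3 of 4 IFIT genes had an ISRE core, against 1 of 8 genes in the mixed group of other interferon-induced genes. These matches describe letters in a window, and binding to them was not measured.

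Total counts ran from 26.3 to 48.2 M (mega-counts) per library. Csf1r averaged 93.8 CPM in WT controls (counts-per-million, scaled by library size and TMM factor), 23.3 CPM in WT mice on PLX3397 and 12.2 CPM in WT mice on PLX5622. In G793A mice it averaged 81.4 CPM on control chow, 74.4 CPM on PLX3397 and 71.6 CPM on PLX5622. The counts carry no base calls, so they do not show the substitution itself. The cerebellar granule cell gene Cbln3 stood at 30.8 CPM in WT PLX5622 replicate 1 and at 221 CPM in G793A PLX5622 replicate 2, against a median of 1.13 CPM over the libraries. The 3 tested cerebellar and pituitary markers, Cbln3 among them, summed to 127 CPM and 222 CPM there. In G793A PLX5622 replicate 2 nearly all of that sum was Cbln3. Without WT PLX5622 replicate 1, the median log2 fold change of the set with PLX5622 in WT mice was -0.30 in place of -0.38. Without G793A PLX5622 replicate 2, the median of G793A mice on PLX5622 against WT controls was -0.19, in place of -0.15. The 6 choroid plexus and ependymal markers also varied, from 248 CPM summed in G793A PLX5622 replicate 1 to 1165 CPM in G793A control replicate 3. Their part in the values of the set was not tested.

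Expression of the set in WT control brain was low and unequal. The median gene stood at 4.03 CPM, 5 genes were under 1 CPM and 7 were at 10 CPM or more. Per kilobase of transcript the highest level was that of Ifi27, a mitochondrial and nuclear envelope protein, at 28.5 CPM per kilobase. Ifitm3, which blocks virus entry at endosomal membranes, followed at 15.2, and Lgals3bp, a secreted glycoprotein, at 9.54 CPM per kilobase. The sensor genes Ifih1 and Eif2ak2 lay at 1.22 and 2.29 CPM per kilobase, while Zbp1, a sensor of Z-form nucleic acid, was lowest at 0.0947 CPM per kilobase.

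In WT mice both inhibitors were followed by lower values across most of the set, but only 1 gene passed the test in either comparison. Trim30a, a TRIM-family ubiquitin ligase, fell to 50.0% of its control level with PLX3397 and 52.7% with PLX5622. With PLX3397, 34 of 36 genes had a negative log2 fold change, and the median of the set was -0.44, or 73.9% of control. With PLX5622, 35 of 36 were negative and the median was -0.38, or 77.1% of control. The median of all genes tested was 0.01 in both comparisons. Both comparisons use the same 3 control libraries, and the inhibitor doses differ, so the values stand side by side and were not compared with each other.

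Of the 36 genes, 1 was lower with PLX3397 at an adjusted p under 0.05, where 1.49% of all tested genes were called lower. With PLX5622 it was again 1, where 1.59% were called lower. These are edgeR quasi-likelihood tests with Benjamini-Hochberg adjustment over all 16209 genes. At an unadjusted p under 0.05, 22 genes were lower with PLX3397, against 5.0% of all genes, and 12 with PLX5622, against 5.29%. None was higher. In 14 genes every PLX3397 library lay below every WT control, against 6.12% of all genes tested. For PLX5622 this held in 10 genes, against 5.26% of all genes. No gene of the set had all inhibitor libraries above all controls.

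**Figure D1:**
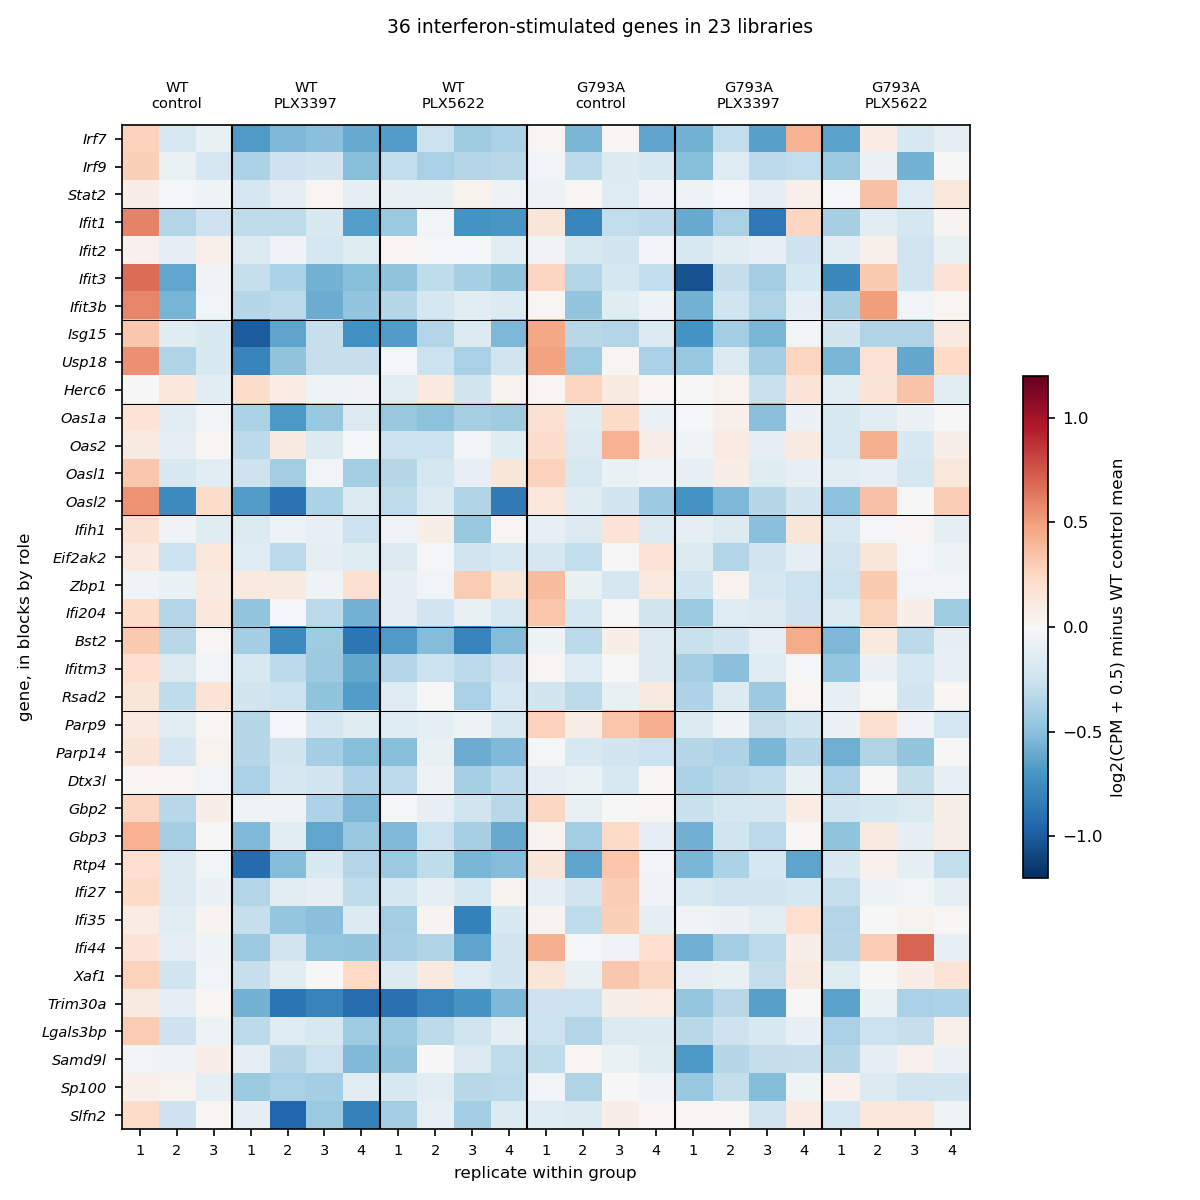
Level of each of the 36 genes in each of the 23 libraries, as log2(CPM + 0.5) minus the WT control mean, with rows in blocks by role and columns in blocks by group. WT control replicate 1 is the reddest WT control column, and the Trim30a row is blue in all 8 WT inhibitor libraries.

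The WT control libraries were not alike for these genes. WT control replicate 1 was the highest of the 3 controls in 30 of 36 genes and the highest of all 23 libraries in 16. Its ratio to the mean of the other 2 controls had a median of 1.28 and was above 1 in 34 of 36 genes, against 49.1% of all genes tested. The ratio reached 2.63 in Oasl1, 2.10 in Usp18 and 2.01 in Ifit3, and stayed near 1 in Dtx3l (1.02) and Herc6 (1.00). The homeostatic microglia score of replicate 1 was 0.07, the highest of the 3 controls, against -0.01 in replicate 2 and -0.06 in replicate 3. The part of those markers in the ratio was not tested. Replicate 2 was the lowest control in 29 of 36 genes.

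Leaving WT control replicate 1 out moved the median of the set to -0.28 (82.5% of control) with PLX3397 and to -0.20 (87.3% of control) with PLX5622. The genes of the set lower at an unadjusted p under 0.05 went from 22 to 9 and from 12 to 5. Over all genes in either direction, the count with such a p went from 1331 to 1099 (6.71%) with PLX3397. With PLX5622 that count went from 1367 to 1252 (7.64%). Trim30a kept its call with PLX3397 and missed it with PLX5622, at an edgeR adjusted p of 0.0587. Without replicate 2 the medians were -0.52 and -0.49, and 2 genes passed in each comparison, Trim30a and Bst2. On the authors' deposited log2 values the medians were -0.14 and -0.12. Those values come from a variance-stabilising transform and hold 34 of the 36 genes. Their medians are on another scale than the edgeR log2 fold changes.

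Averaging log2(CPM + 0.5) over the 36 genes gave each library a score relative to the WT control mean. WT controls ran from -0.21 to 0.23, WT PLX3397 libraries from -0.38 to -0.31 and WT PLX5622 libraries from -0.32 to -0.18. All PLX3397 scores lay below all controls, and the highest PLX5622 score lay above the lowest control. The SD of the score was 0.22 in WT controls (n = 3), 0.03 on PLX3397 and 0.07 on PLX5622 (n = 4 each). In the 3 G793A groups it was between 0.13 and 0.16. Over the same libraries the score of 15 homeostatic microglia markers ran from -2.28 to -1.73 on PLX3397 and from -3.34 to -2.16 on PLX5622. WT PLX5622 replicate 2 had the lowest microglia score of all and the highest interferon-stimulated score of the WT inhibitor libraries. The other way, WT PLX3397 replicate 4 had the lowest microglia score of its group and the lowest interferon-stimulated score of the WT inhibitor libraries. How the 2 scores relate was not tested.

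**Figure D2:**
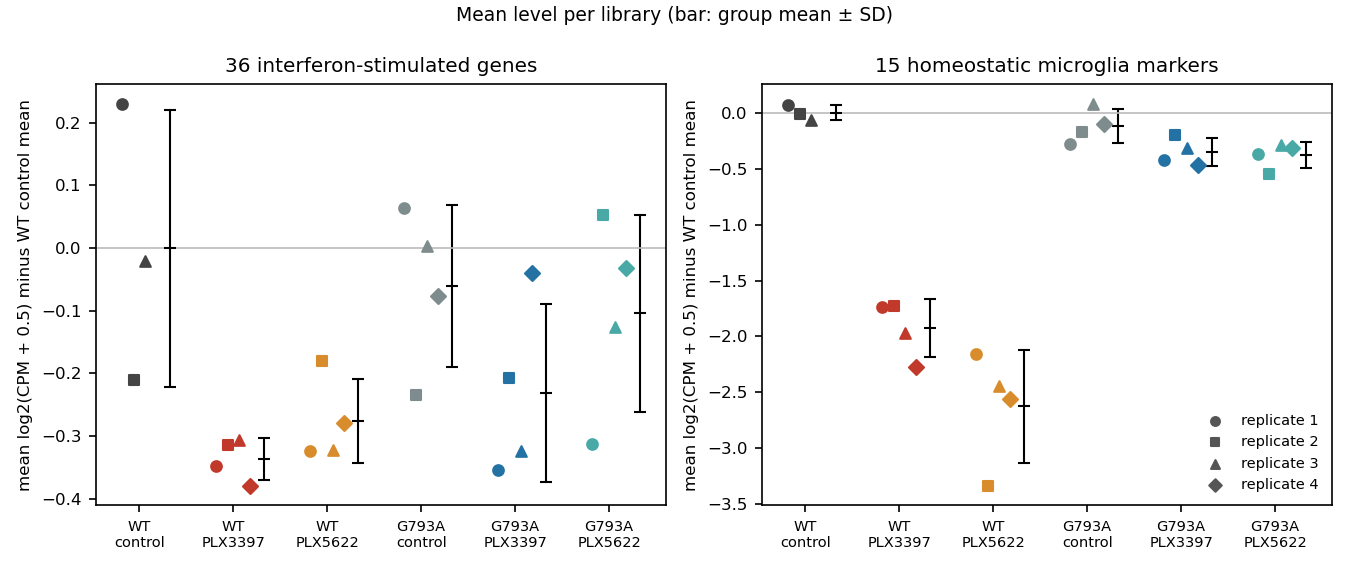
Mean log2(CPM + 0.5) minus the WT control mean of the 36 interferon-stimulated genes (left) and of 15 homeostatic microglia markers (right), by library, with group mean and SD beside the points and a separate scale for each panel. The left panel spans -0.38 to 0.23 and the right panel -3.34 to 0.08.

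Macrophage markers were also lower in the WT inhibitor groups. Of the microglia markers, 14 of 15 passed the test as lower with each inhibitor, and their summed level went from 499 to 545 CPM in WT controls to 115 to 167 CPM on PLX3397 and 63.6 to 125 CPM on PLX5622. Of 10 border-associated macrophage markers, 9 were lower with PLX3397 and 7 with PLX5622, and their sum went from 27.1 to 31.2 CPM to 5.49 to 7.15 and 5.45 to 7.16 CPM. None of 10 endothelial, 10 astrocyte, 10 oligodendrocyte or 10 neuron markers passed in either comparison. Endothelial markers had medians of -0.13 and -0.14 on the log2 scale, with 9 and 10 of 10 negative. Of 10 monocyte and neutrophil markers 8 were tested and none passed, at medians of 1.19 and 1.60. At an unadjusted p under 0.05, 3 and 4 were higher. Of all 16209 genes, 1331 and 1367 had such a p in either direction, and 811 and 858 of those were lower. The summed level of the monocyte and neutrophil markers was 0.966 to 1.69 CPM in WT controls, 2.57 to 11.6 CPM on PLX3397 and 1.23 to 10.3 CPM on PLX5622. In G793A mice it was 1.50 to 3.94 CPM on control chow, 1.82 to 10.7 CPM on PLX3397 and 6.35 to 27.0 CPM on PLX5622. The summed level of the 36 genes was 198 to 269 CPM in WT controls. In WT mice it was 176 to 193 CPM on PLX3397 and 184 to 204 CPM on PLX5622. In bulk tissue fewer cells of a type and less RNA per cell cannot be told apart, and the part of the macrophage, endothelial, monocyte and neutrophil markers in the lower values was not tested.

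Among signalling and transcription genes, Irf9, the DNA-binding partner of STAT2, had 9.39, 7.13 and 6.51 CPM in the WT controls, 5.71, 6.31, 6.41 and 5.18 CPM on PLX3397 and 6.09, 5.68, 5.85 and 5.93 CPM on PLX5622. Every inhibitor library was below every control, but PLX3397 replicate 3 at 6.41 CPM was close to control replicate 3 at 6.51 CPM. Its log2 fold change was -0.38 ± 0.14 (SE; adjusted p = 0.336) with PLX3397 and -0.38 ± 0.14 (SE; adjusted p = 0.316) with PLX5622. In G793A mice Irf9 had 7.41, 5.99, 6.70 and 6.59 CPM on control chow, 5.18, 6.75, 6.01 and 6.10 CPM on PLX3397 and 5.46, 7.19, 4.97 and 7.57 CPM on PLX5622, and these groups overlapped. Irf7, the factor that amplifies type I interferon production, had no overlap either, with a log2 fold change of -0.72 and -0.54, while Stat2, which is activated at the type I receptor, was at -0.10 and -0.05. None of the 3 passed the test.

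The IFIT genes encode antiviral proteins, some of which bind viral RNA that lacks the host's cap marks. All 4 had negative log2 fold changes with both inhibitors, from -0.55 to -0.15 with PLX3397 and from -0.59 to -0.04 with PLX5622, and none passed. Ifit3 had 20.1, 7.90 and 12.1 CPM in the WT controls, 10.2, 9.50, 8.24 and 8.63 CPM on PLX3397 and 8.79, 9.97, 9.35 and 8.77 CPM on PLX5622. Control replicate 1 was the highest of these libraries and control replicate 2 the lowest, so the groups overlapped. Ifit3 and Ifit3b share 61.8% and 54.1% of their 31-base transcript stretches with each other, so the estimated counts may be divided between them, and each value is uncertain.

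ISG15 is a ubiquitin-like protein that is attached to other proteins, USP18 removes it and restrains the type I receptor, and HERC6 attaches it in mice. Isg15 had 3.13, 2.11 and 2.06 CPM in the WT controls, 0.947, 1.37, 1.88 and 1.25 CPM on PLX3397 and 1.32, 1.77, 2.08 and 1.49 CPM on PLX5622. PLX3397 libraries all lay below the controls, and PLX5622 replicate 3 lay between the 2 lower controls. The log2 fold change of Isg15 was -0.83 ± 0.26 (SE; adjusted p = 0.188) with PLX3397 and -0.55 ± 0.26 (SE; adjusted p = 0.585) with PLX5622. In G793A mice it had 3.48, 1.80, 1.77 and 2.08 CPM on control chow, 1.27, 1.67, 1.48 and 2.33 CPM on PLX3397 and 1.98, 1.76, 1.76 and 2.63 CPM on PLX5622, with the highest value of all libraries in control replicate 1. Usp18 was at -0.70 and -0.37 on the log2 scale, and Herc6 at 0.06 and -0.05. Herc6 shares 25.0% of its stretches with another annotated gene.

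The OAS proteins sense double-stranded RNA, and many of them make a second messenger that activates RNase L. Oas1a had 0.987, 0.713 and 0.792 CPM in the WT controls, 0.519, 0.322, 0.470 and 0.679 CPM on PLX3397 and 0.468, 0.443, 0.504 and 0.487 CPM on PLX5622. All 8 inhibitor libraries were below the 3 controls, and the log2 fold change was -0.74 ± 0.26 (SE; adjusted p = 0.304) with PLX3397 and -0.80 ± 0.26 (SE; adjusted p = 0.219) with PLX5622. In G793A mice it had 1.01, 0.703, 1.05 and 0.763 CPM on control chow, 0.809, 0.881, 0.436 and 0.762 CPM on PLX3397 and 0.661, 0.704, 0.759 and 0.822 CPM on PLX5622, and most G793A libraries lay above the range of the WT inhibitor groups. Oas1a shares 68.7% of its stretches with its paralog Oas1g, so its level is uncertain. Oas2, Oasl1 and Oasl2 were at -0.19, -1.10 and -0.73 with PLX3397 and at -0.38, -0.44 and -0.60 with PLX5622. The large value of Oasl1 rests on a mean of 0.248 CPM in controls.

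Of the nucleic acid sensors, Ifih1 (MDA5, a sensor of long double-stranded RNA) and Eif2ak2 (PKR, which halts translation) were close to control. Their log2 fold changes were -0.16 and -0.20 with PLX3397 and -0.10 and -0.17 with PLX5622. Zbp1 had positive values of 0.29 and 0.25 at a control level of 0.188 CPM. Ifi204, a DNA sensor gene that shares 46.0% of its stretches with other genes, was at -0.99 and -0.44. No sensor passed the test, and in all 4 the groups overlapped.

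All 3 membrane-acting genes were lower at an unadjusted p under 0.05 with PLX3397, and 2 with PLX5622. Bst2, which encodes tetherin, a protein that holds budding virus at the cell surface, had 4.88, 2.94 and 3.86 CPM in the WT controls, 2.75, 2.04, 2.71 and 1.87 CPM on PLX3397 and 2.20, 2.52, 1.98 and 2.52 CPM on PLX5622. The inhibitor libraries all lay below the lowest control. Its log2 fold change was -0.74 ± 0.21 (SE; adjusted p = 0.0958) with PLX3397 and -0.76 ± 0.21 (SE; adjusted p = 0.0796) with PLX5622, so it missed the threshold in both. With DESeq2 it passed, at adjusted p-values of 0.0415 and 0.0327, and without WT control replicate 2 it passed in edgeR at 0.0418 and 0.0309. In G793A mice Bst2 had 3.63, 2.96, 4.07 and 3.36 CPM on control chow, 3.10, 3.18, 3.49 and 5.37 CPM on PLX3397 and 2.47, 4.19, 2.97 and 3.48 CPM on PLX5622, and PLX3397 replicate 4 was above every WT control. Ifitm3 had 11.9, 9.06 and 10.1 CPM in the WT controls, 8.92, 8.13, 7.46 and 6.54 CPM on PLX3397 and 7.96, 8.51, 8.18 and 8.57 CPM on PLX5622, with no overlap. On the log2 scale the change was -0.41 ± 0.12 (SE; adjusted p = 0.139) with PLX3397 and -0.31 ± 0.12 (SE; adjusted p = 0.407) with PLX5622. In G793A mice Ifitm3 had 10.4, 9.18, 10.3 and 9.07 CPM on control chow, 7.55, 7.12, 9.18 and 10.1 CPM on PLX3397 and 7.29, 9.79, 8.79 and 9.58 CPM on PLX5622. Rsad2 (viperin, which makes a chain-terminating nucleotide) was at -0.51 and -0.24.

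**Figure D3:**
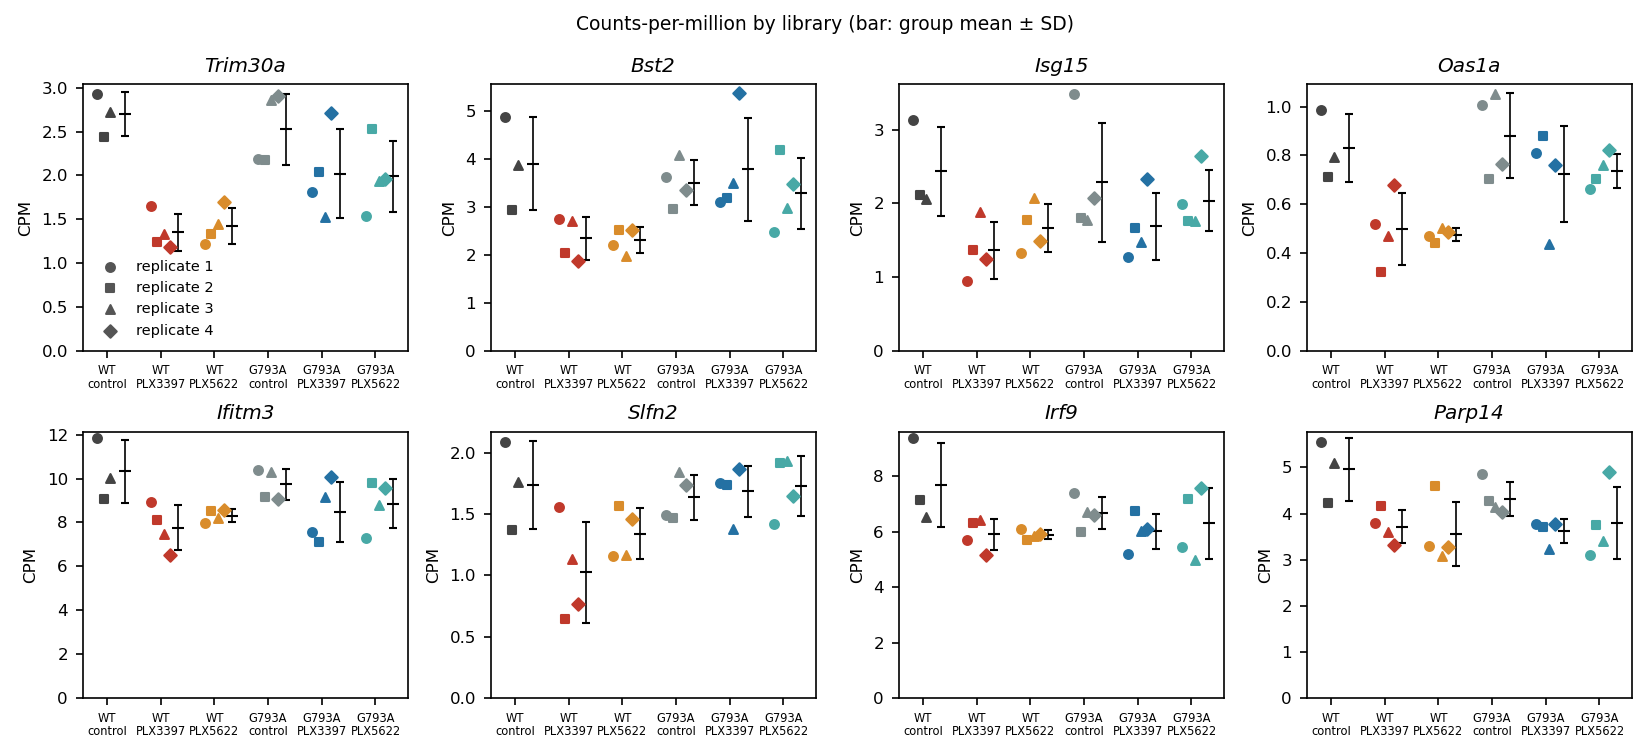
CPM by library of the 8 genes that passed the test or had the 5 smallest p-values in a WT inhibitor comparison, with group mean and SD beside the points. Trim30a, Bst2, Oas1a, Ifitm3 and Irf9 show both WT inhibitor groups below all WT controls.

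Parp9, Parp14 and Dtx3l are neighbours in the genome, and PARP9 and DTX3L form an ADP-ribosylation and ubiquitin ligase pair. Parp14 had 5.55, 4.22 and 5.10 CPM in the WT controls, 3.79, 4.16, 3.59 and 3.31 CPM on PLX3397 and 3.31, 4.59, 3.08 and 3.27 CPM on PLX5622. PLX5622 replicate 2 lay inside the control range, and the other inhibitor libraries lay below the controls. For Parp14 the log2 fold change was -0.42 ± 0.15 (SE; adjusted p = 0.323) with PLX3397 and -0.48 ± 0.15 (SE; adjusted p = 0.171) with PLX5622. In G793A mice it had 4.86, 4.28, 4.14 and 4.03 CPM on control chow, 3.78, 3.71, 3.22 and 3.77 CPM on PLX3397 and 3.11, 3.74, 3.42 and 4.90 CPM on PLX5622. Parp9 was at -0.20 and -0.16, and Dtx3l at -0.31 and -0.28, with every inhibitor library of Dtx3l below every control. The guanylate-binding protein genes Gbp2 and Gbp3, whose products attack pathogen membranes, were at -0.29 and -0.51 with PLX3397 and -0.21 and -0.53 with PLX5622, with overlapping groups.

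Among the 10 other interferon-induced genes, all had negative values with both inhibitors and 1 passed. Trim30a had 2.93, 2.44 and 2.72 CPM in the WT controls, 1.65, 1.24, 1.33 and 1.19 CPM on PLX3397 and 1.21, 1.33, 1.45 and 1.69 CPM on PLX5622. All 8 inhibitor libraries lay below the lowest control. Its log2 fold change was -1.0 ± 0.20 (SE; adjusted p = 0.00396) with PLX3397 and -0.92 ± 0.20 (SE; adjusted p = 0.00769) with PLX5622. On the deposited log2 values the PLX3397 call was lost, at an adjusted p of 0.0799 in limma. In G793A mice it had 2.18, 2.17, 2.86 and 2.90 CPM on control chow, 1.81, 2.04, 1.53 and 2.71 CPM on PLX3397 and 1.54, 2.53, 1.93 and 1.96 CPM on PLX5622, and the inhibitor groups overlapped the G793A controls. Trim30a shares 11.8% of its stretches with other genes, and 9.30% with Trim30d. Its estimated counts were not whole in 100% of libraries, so they may be divided between genes.

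Slfn2, a regulator of immune cell quiescence, had 2.09, 1.37 and 1.76 CPM in the WT controls, 1.56, 0.644, 1.13 and 0.764 CPM on PLX3397 and 1.16, 1.57, 1.17 and 1.46 CPM on PLX5622. PLX3397 replicate 1 and 2 of the 4 PLX5622 libraries lay inside the control range. Its log2 fold change was -0.77 ± 0.23 (SE; adjusted p = 0.143) with PLX3397 and -0.38 ± 0.23 (SE; adjusted p = 0.76) with PLX5622, and without WT PLX3397 replicate 1 it passed the test, at a log2 fold change of -1.04. In G793A mice it had 1.50, 1.47, 1.84 and 1.74 CPM on control chow, 1.75, 1.74, 1.38 and 1.87 CPM on PLX3397 and 1.42, 1.92, 1.93 and 1.64 CPM on PLX5622. Rtp4, Ifi44 and Sp100 had no overlap with controls in either comparison, at -0.58, -0.63 and -0.39 with PLX3397 and -0.56, -0.62 and -0.27 with PLX5622. Ifi35 and Samd9l had none with PLX3397. Xaf1, Lgals3bp and Ifi27 were at -0.05, -0.29 and -0.23 with PLX3397 and -0.14, -0.30 and -0.13 with PLX5622.

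**Figure D4:**
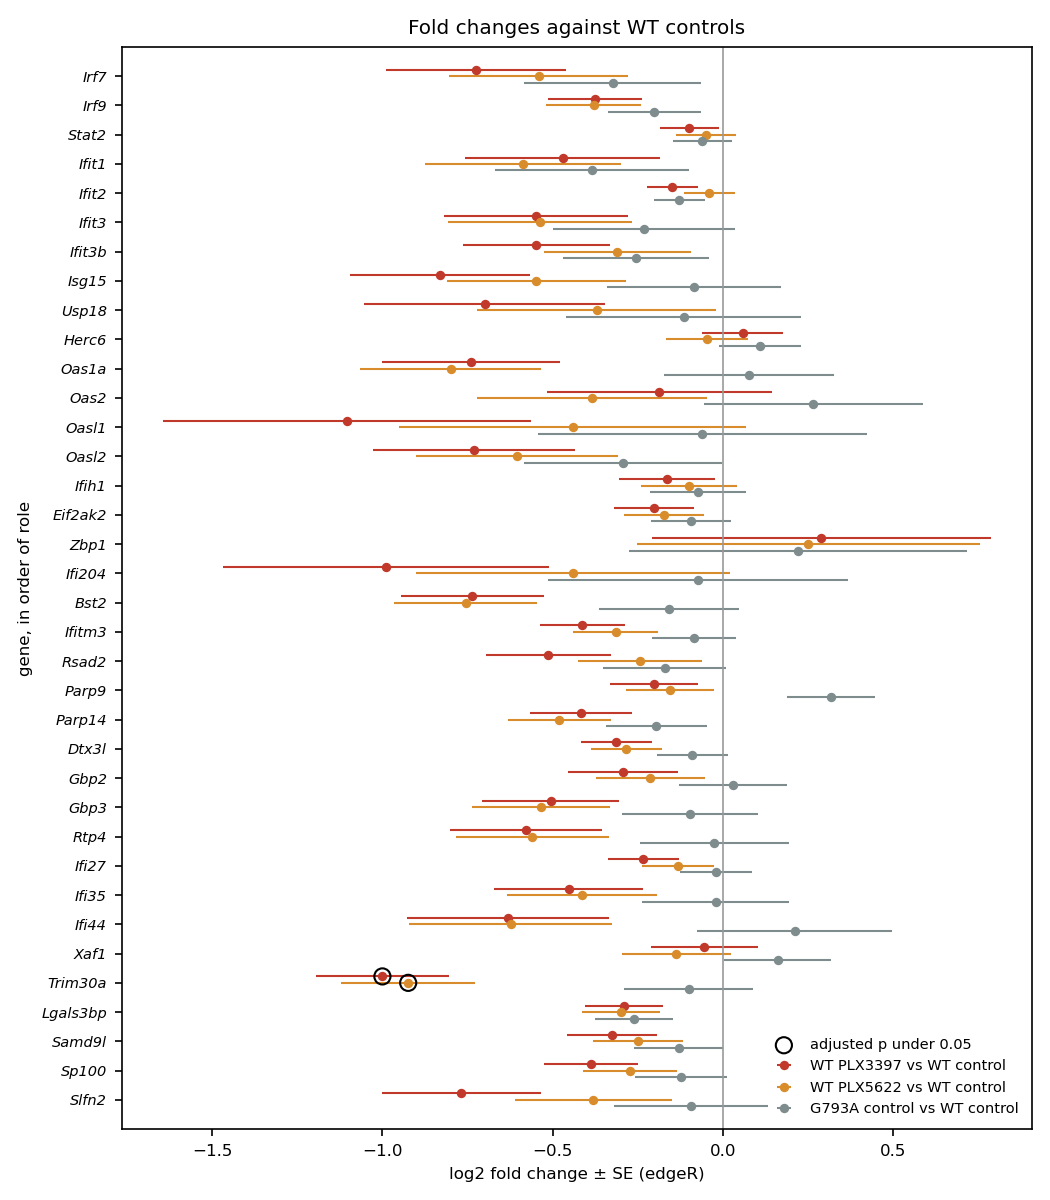
Log2 fold change with SE of each of the 36 genes against WT controls, for WT PLX3397, WT PLX5622 and G793A control, with rings at an adjusted p under 0.05. The 2 rings are both on Trim30a, at -1.0 and -0.92.

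The G793A substitution alone gave no call in the set, and 0.0% of all genes tested were called. That share rests on 1 library: without G793A control replicate 2, 2.32% of all genes were called, and again none of the set. The median of the set was -0.09, with 28 of 36 genes negative, and it was 0.05 without WT control replicate 1, with 12 negative. At an unadjusted p under 0.05, 1 gene was lower and 1 higher, against 5.23% and 5.9% of all genes. No gene had all G793A controls below all WT controls, against 2.91% of all genes.

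G793A mice on PLX3397 gave no call against WT controls, where 0.00617% of all genes were called. The median was -0.29 with 35 of 36 genes negative, and 14 were lower at an unadjusted p under 0.05, against 4.17% of all genes. Leaving out WT control replicate 1 moved the median to -0.13 and the 14 genes to 4. Over all genes in either direction, the count with such a p went from 1173 to 1385 (8.45%). All libraries were below all controls in 5 genes (Parp14, Dtx3l, Rtp4, Ifi27 and Samd9l), against 4.11% of all genes. On PLX5622 there was again no call, with 0.0% of all genes called. The median was -0.15, and 2 genes were lower at an unadjusted p under 0.05, against 3.55% of all genes. No gene lacked overlap, against 3.86% of all genes. Without WT control replicate 1 the median was -0.02. Microglia markers in these groups summed to 390 to 454 CPM on PLX3397 and 360 to 434 CPM on PLX5622.

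Against G793A controls, which avoid the WT control libraries, PLX3397 gave a median of -0.21 with 30 of 36 genes negative and no call, where 0.00617% of all genes were called. At an unadjusted p under 0.05, 6 genes were lower, against 5.7% of all genes, and 2 genes (Parp9 and Parp14) had no overlap, against 2.12%. PLX5622 gave a median of -0.08 with 23 of 36 genes negative and no call, where 0.0% of all genes were called in edgeR and 1.33% in DESeq2. The median was 0.03 without G793A PLX5622 replicate 1. There 1 gene was lower at an unadjusted p under 0.05, against 7.85% of all genes, and none lacked overlap, against 2.83%. Parp9 passed in both comparisons when G793A control replicate 2 was left out, where 0.142% of all genes were called for PLX3397 and 6.05% for PLX5622. That replicate was the lowest of its group in 22 of 36 genes.

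The difference between genotypes was tested as an interaction, that is, the response of G793A mice to an inhibitor less the response of WT mice, on the log2 scale. No gene passed for PLX3397, where 0.555% of all genes were called, or for PLX5622, where 0.808% were called. At an unadjusted p under 0.05, 4 genes were higher in each and none lower, against 2.87% and 4.33% of all genes higher. DESeq2 and limma-voom also called none of the 36 genes in either interaction or in any of the 5 comparisons of G793A groups. The median interaction was 0.20 for PLX3397 and 0.29 for PLX5622, and 0.05 and 0.16 without WT control replicate 1. For Trim30a it was 0.67 ± 0.27 (SE; adjusted p = 0.932) for PLX3397 and 0.58 ± 0.27 (SE; adjusted p = 0.651) for PLX5622. For Bst2 it was 0.84 ± 0.28 (SE; adjusted p = 0.549) for PLX3397 and 0.66 ± 0.29 (SE; adjusted p = 0.623) for PLX5622.

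Libraries of one group differed together in this set. After group means were removed, the correlation over the 23 libraries between 2 genes of the set had a median of 0.34 over 630 pairs, and 91.4% of pairs were above 0. Over pairs of all genes the median was -0.001 and 49.9% were above 0. The closest pairs were Ifit3 with Ifit3b at 0.90, which share sequence, and Ifit3b with Gbp3 and Bst2 with Ifitm3 at 0.84 each. These points share libraries and group means and are a description. G793A PLX3397 replicate 4 was the highest of its group in 26 of 36 genes, and G793A PLX5622 replicate 1 was the lowest of its group in 25.

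The pathway around the set was described through 49 further genes, of which 39 were tested. At an edgeR adjusted p under 0.05, 8 were lower with PLX3397, where 1.49% of all genes were called lower. With PLX5622 7 were lower, where 1.59% of all genes were, and none was higher in either comparison. The interferon genes themselves were barely counted. Of 9 ligand genes none could be tested, 4 had no count in any library, and the largest count of any in 1 library was 3, for Ifng. A count of 0 allows up to 3 counts, which is 0.0623 CPM in the deepest library and 0.114 CPM in the shallowest, for counting error only.

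The type I receptor subunits Ifnar1 and Ifnar2 had log2 fold changes of 0.02 and -0.02 with PLX3397 and -0.05 and -0.03 with PLX5622. Of the type II receptor, Ifngr1 fell by 0.37 and 0.39 on the log2 scale, at edgeR adjusted p-values of 0.0408 and 0.025, while Ifngr2 was at -0.06 and -0.01. Irf3, a factor that starts interferon production, was at -0.10 and -0.09, and Irf1 at -0.35 and -0.24, none past the threshold. The myeloid-enriched factors Irf5 and Irf8 fell by 1.72 and 1.23 with PLX3397 and by 1.71 and 1.56 with PLX5622. Sting1, the adaptor of cytosolic DNA sensing, fell by 1.82 and 1.72, Tlr7, an endosomal RNA receptor, by 1.06 and 1.78, and Unc93b1, its trafficking partner, by 1.37 and 1.57. The phosphatase gene Ptpn6 fell by 1.56 and 1.91, and these 6 genes all passed the test with both inhibitors. The shared receptor subunit gene Il10rb fell by 0.44 with PLX3397 and was at -0.31 with PLX5622, at edgeR adjusted p-values of 0.0225 and 0.234, and the difference between the inhibitors was not tested. Microglia markers fell in the same libraries, and their part in these changes was not tested.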

How the data were processed

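Stranded mRNA libraries of brain tissue were sequenced on a NovaSeq instrument, per the labels. Per the submitters' processing notes, the tools were kallisto 0.46.1, FastQC 0.11.9 and DESeq2 1.26.0, on GRCm39. How transcripts were summed to genes is not stated there. The authors deposited expected counts per gene, 45.3% of them not whole (over 1e-06 from a whole number), and log2 values from a variance-stabilising transform, which were used only as an alternative and hold 34 of the 36 genes. A blank entry (at most 0.0151% of counts) was left out. Counts were rounded and tested in edgeR 4.0.16 (R 4.3.3) with TMM scaling, filterByExpr (minimum count 10, total 15) and 1 robust quasi-likelihood model with 6 group terms over 23 libraries. All tests are two-sided, with a Benjamini-Hochberg threshold of 0.05 over 16209 genes. The SE is the log2 fold change over the root of F. The procedure was tested on simulated data. Alternatives were DESeq2 1.42.0, limma 3.58.1 on the deposited log2 values, other scaling and filters, a replicate block and each library left out. Values of every library are given for genes that passed and for the 5 smallest p-values in each WT inhibitor comparison, plus Ifit3 as an example chosen after its values were seen. The genes and lists were chosen with earlier results of these data known. Replicate numbers did not pair the samples. At 26.3 to 48.2 M counts per library, genes under 1 CPM are the least precise.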

Additional observations from a re-analysis of the deposited data

Results flagged for a closer look

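Parp14 gave both values that stood apart within a group of 4, out of 45 groups tested, and chance marks about 1 in 20 groups. In G793A mice on PLX3397, replicate 3 had 3.22 CPM against 3.71 to 3.78 CPM in the other libraries of the group. In WT mice on PLX5622, replicate 2 had 4.60 CPM (4.595) against 3.08 to 3.31 CPM in the others, and without it Parp14 passed the edgeR test at a log2 fold change of -0.62.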

How the results depend on the processing

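For WT PLX3397 against WT control, 1 gene passed in edgeR, 2 passed with DESeq2 and 0 with limma on the deposited log2 values, and leaving out each replicate in turn gave 1 to 2. For WT PLX5622, 1 passed in edgeR, 2 with DESeq2 and 0 to 2 when each replicate was left out. Within G793A mice the count was 0 for both inhibitors and 0 to 1 when each replicate was left out. The cause of these moves was not tested. With the replicate block 1 gene passed in each WT inhibitor comparison and 0 in the others, at medians of -0.45 for PLX3397 and -0.35 for PLX5622. Same-numbered libraries had a median correlation of deviations of 0.001, and 3 of 23 libraries correlated best with their own number, so the numbers were not taken as pairs. No value past the threshold changed direction under any alternative run. For the 8 genes given by library in both WT inhibitor comparisons, 278 values under alternatives kept their side of the threshold, 6 passed only under the alternative and 2 lost the call. Over all alternatives the median of the set ran from -0.52 to -0.14 for WT PLX3397 and from -0.49 to -0.12 for WT PLX5622. The upper ends, -0.14 and -0.12, come from the deposited log2 values, which are on another scale. It crossed 0 for G793A control against WT control, from -0.17 to 0.05, and for PLX5622 within G793A mice, from -0.15 to 0.03.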
